A study of Mus musculus with 10 samples.

Results

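The chemokine and cytokine transcripts that the intestinal epithelium is known to make were followed in colonic intestinal epithelial cells (IECs) of wild type (WT) and RhoB-/- mice. The members were chosen by gene name, with earlier results of these data known. All 10 were found among the 55487 genes of the table: Ccl25, Ccl28, Ccl20, Cxcl1, Cxcl9, Cxcl10, Cxcl16, Cx3cl1, Il15 and Il18. The series compared 5 WT with 5 RhoB-/- mice of the C57BL/6J strain, 1 RNA sequencing library per mouse, to find the genes whose expression differs when RhoB, a small GTPase, is lost. Expression was given in TPM, the share of a library's transcripts that a gene takes after correction for transcript length, so that levels of different genes can be set side by side. The labels name colon as the tissue and no treatment, age or sex. According to the study's methods the knockout is homozygous, WT mice were bought from an outside supplier and knockout mice came from another centre, so genotype and mouse source cannot be told apart. The epithelium was released from pieces of colon with EDTA and DTT, with no sort for epithelial cells. Since TPM holds no read totals, sequencing depth is unknown and no counting interval can be given.

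Chemokines are small secreted proteins that draw in leukocytes bearing the matching receptor, and the gut epithelium is a main source of them. Ccl25 and Ccl28 are made by the resting epithelium and attract lymphocytes and antibody-producing cells that home to the gut. Ccl20, Cxcl1, Cxcl9 and Cxcl10 are induced by microbial products and cytokines, while Cxcl16 and Cx3cl1 are made as membrane-bound chemokines that can be shed. Il15 sustains intraepithelial lymphocytes (IELs), and Il18 is stored as a precursor that caspase-1 cleaves in inflammasomes.

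The targeted gene was examined first. Rhob stood at 171, 303, 365, 333 and 389 TPM in WT replicates 1 to 5 and at 0.090, 0.10, 0.35, 0.57 and 111 TPM in the libraries labelled RhoB-/- replicates 1 to 5. The library labelled RhoB-/- replicate 5 therefore stood apart from the other 4 knockout libraries, at 35.5% of the WT mean. In the first principal component, which held 36.4% of the variance, that library lay at 41.9, beside the other RhoB-/- libraries at 24.9 to 36.5, while WT libraries lay between -48.7 and -22.4. Mitochondrially encoded genes took 26.5, 17.5, 18, 18.2 and 20.3% of the TPM in WT replicates 1 to 5 and 19.4, 22.4, 10.3, 17.1 and 12.1% in RhoB-/- replicates 1 to 5. WT replicate 1 had the highest share of all 10 libraries, and RhoB-/- replicates 3 and 5 the lowest. Results are given below with all 10 libraries and, where they rest on it, without the library labelled RhoB-/- replicate 5.

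The libraries carried the label's tissue. All 11 markers of colonic epithelium were above a mean of 1 TPM, and their most abundant gene, the carbonic anhydrase Car1, averaged 12755 ± 2243 TPM in WT and 17151 ± 5027 TPM in RhoB-/- libraries (SD, n = 5 each). The summed TPM of the list was 23313, 23266, 27664, 27604 and 25090 in WT replicates 1 to 5 and 27824, 24672, 35976, 32197 and 40940 in RhoB-/- replicates 1 to 5. Of these 11 genes, 4 were called higher in RhoB-/- libraries and 0 lower by limma, beside 7.73% and 13.5% of all genes tested. The same counts held at unadjusted p under 0.05. The 4 called were Krt20 (log2 fold change 1.17), Car4 (1.105), Vil1 (0.65) and Aqp8 (1.44), genes of the differentiated absorptive cell. In bulk libraries, fewer cells of a type and less RNA per cell cannot be told apart.

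Il18 was the most abundant member in both groups, and Cxcl9 the least. In WT libraries the order by mean TPM was Il18 (89.2 ± 23.1, SD, n = 5), Ccl28 (32.9 ± 8.14), Cx3cl1 (28.6 ± 3.996), Il15 (18.3 ± 4.46), Cxcl16 (12.8 ± 6.29), Ccl20 (8.37 ± 4.31), Ccl25 (7.85 ± 1.04), Cxcl10 (6.33 ± 3.60), Cxcl1 (5.68 ± 2.64) and Cxcl9 (0.21 ± 0.13). Only the first and the last step of this order separated ranges that did not overlap, Il18 from Ccl28 and Cxcl1 from Cxcl9. The neighbours Ccl20 and Ccl25 kept their order in 2 of 5 WT libraries, as did Cxcl10 and Cxcl1. In RhoB-/- libraries the order was Il18 (45.9 ± 7.56, SD, n = 5), Cx3cl1 (33.3 ± 4.29), Ccl28 (29.1 ± 4.06), Il15 (19.1 ± 5.35), Ccl25 (7.61 ± 1.01), Cxcl16 (6.00 ± 2.07), Ccl20 (5.44 ± 0.76), Cxcl10 (3.55 ± 0.57), Cxcl1 (3.42 ± 1.87) and Cxcl9 (0.63 ± 0.21). Here the ranges of Il15 and Ccl25, of Ccl20 and Cxcl10, and of Cxcl1 and Cxcl9 were apart, while the other neighbours overlapped.

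**Figure D1:**
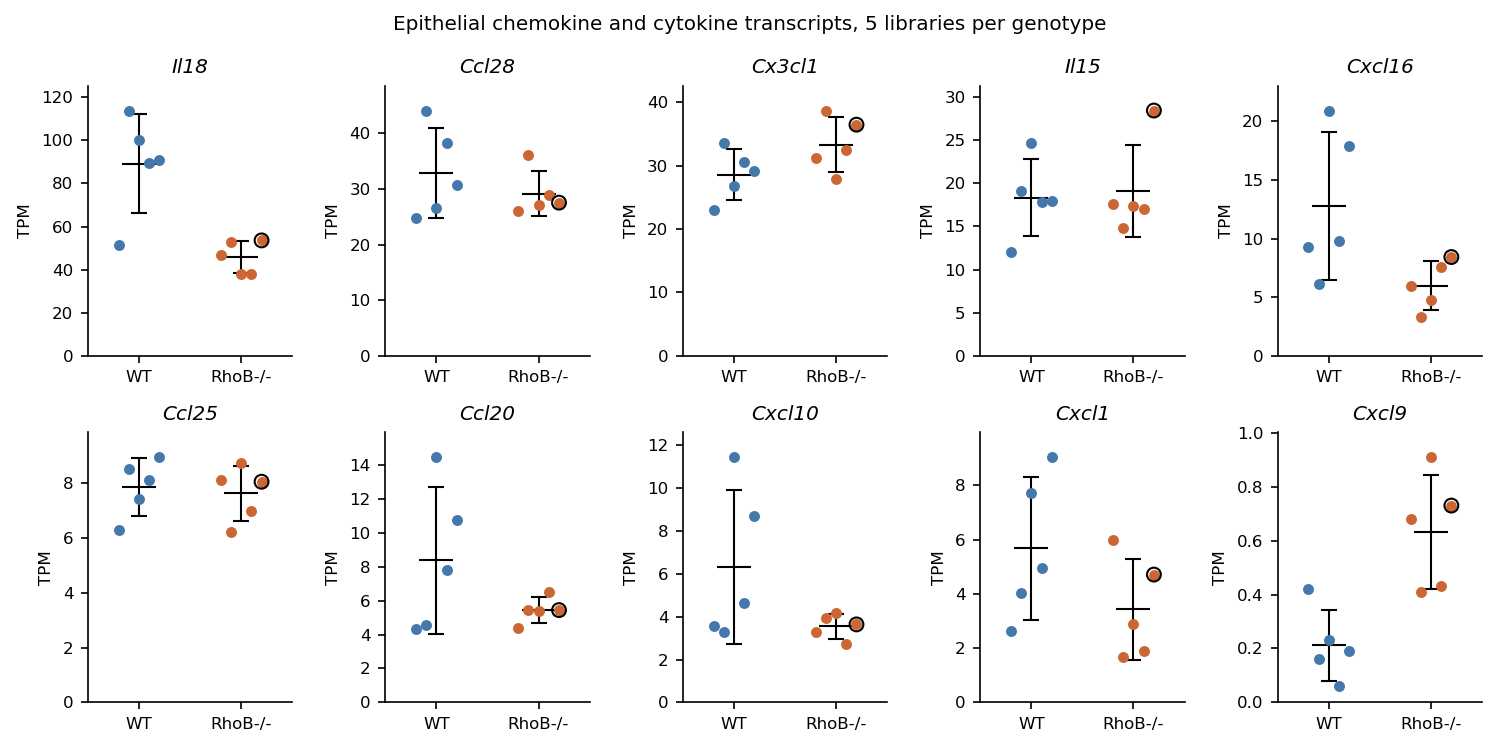
TPM (vertical axes, each from 0) of the 10 members in 5 WT and 5 RhoB-/- libraries. Points are libraries, the short line and bar are the mean and SD, and the ringed point is the library labelled RhoB-/- replicate 5. Il18 averaged 89.2 TPM in WT and 45.9 TPM in RhoB-/- libraries, while Ccl25 averaged 7.85 and 7.61 TPM.

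To ask which members differed between genotypes, limma was fitted to log2(TPM + 1) of the 12870 genes with a mean of at least 1 TPM, and a gene was called at an adjusted p below 0.05. Of the 9 members above that level, 1 was called lower in RhoB-/- libraries, Il18, and 0 were called higher. Over all genes tested, 1734 (13.5%) were called lower and 995 (7.73%) higher, so the share of the members is near that of the genes at large. At unadjusted p under 0.05, 2 members were lower, Il18 and Cxcl16, and 0 higher. With the further condition of a fold above 1.5, which the study used, these 2 of 9 stood beside 1072 genes (8.33%) called lower. The shares of 13.5% and 7.73% are for adjusted p. No share of all genes is given for unadjusted p alone, here or for any list. None of the 9 members had groups that did not overlap, beside 1868 genes (14.5%). The median log2 fold change of the 9 was -0.42, and that of all tested genes was -0.13. Relative to this shift the changes are less negative by that amount, and Ccl25 changes sign. Among all called genes 36.5% were higher, and 65.2% after recentring on the median, with 1443 genes higher and 771 lower. Without the library labelled RhoB-/- replicate 5, the members counted 1 lower and 0 higher, beside 1116 and 719 of all genes. Lower calls over all genes were also fewer without WT replicate 2 (950), WT replicate 4 (853) or RhoB-/- replicate 1 (985), and more without RhoB-/- replicate 3 (2868). With mitochondrially encoded genes left out and TPM rescaled, 3729 genes were called lower. Without WT replicate 2 the members counted 2 lower.

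**Figure D2:**
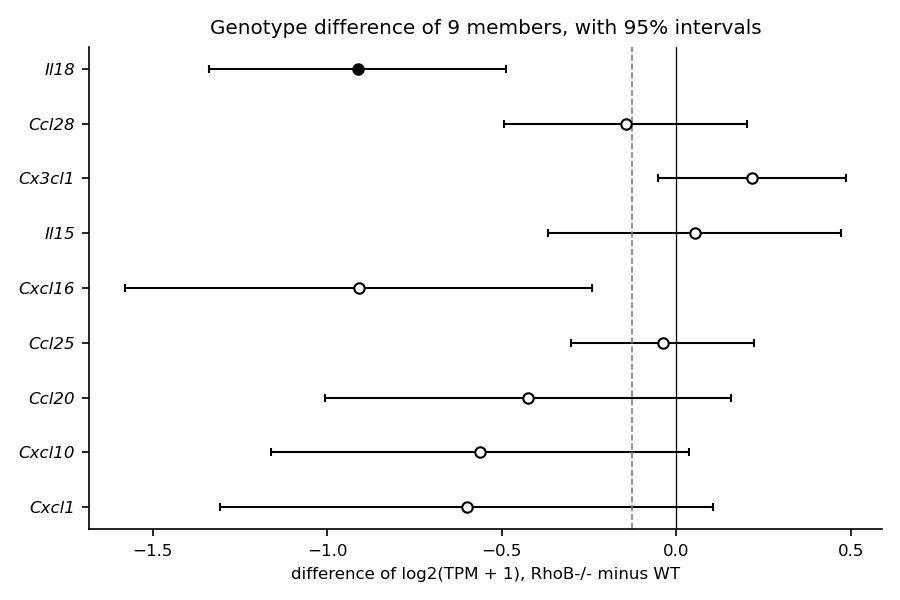
Difference of mean log2(TPM + 1), RhoB-/- minus WT (horizontal axis), of the 9 members tested, with 95% intervals from limma, in order of mean TPM. The filled point marks the member called, Il18 at -0.91, the dashed line the median of all tested genes at -0.13, and the open points the 8 members not called.

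Among the chemokines of the resting epithelium, neither Ccl25 nor Ccl28 was called. Ccl25 (ENSMUSG00000023235, chr8:4325210-4360020, plus strand, GRCm38), the ligand of Ccr9 on gut-homing T cells, ranged from 6.28 to 8.94 TPM in WT and from 6.20 to 8.72 TPM in RhoB-/- libraries. Its log2 fold change was -0.04, with a 95% interval of -0.30 to 0.22 (limma adjusted p = 0.84), and 0.09 relative to the median of all genes. Ccl28 (ENSMUSG00000074715, chr13:119623819-119654359, plus strand), the ligand of Ccr10 on IgA-producing cells, ranged from 24.8 to 44.1 TPM in WT and from 26.0 to 36.2 TPM in RhoB-/- libraries. Its log2 fold change was -0.15, with a 95% interval of -0.49 to 0.20 (limma adjusted p = 0.53). These intervals leave room for changes of that size in either direction.

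Of the inducible chemokines above the filter, Ccl20, Cxcl1 and Cxcl10, none was called. Ccl20 (SD 4.31 TPM in WT and 0.76 TPM in RhoB-/- libraries) and Cxcl10 (3.60 and 0.57 TPM) spread more widely among WT libraries, while for Cxcl1 the SDs were 2.64 and 1.87 TPM. Ccl20 (ENSMUSG00000026166, chr1:83116766-83119167, plus strand), which attracts Ccr6-bearing lymphocytes and dendritic cells, stood at 4.30, 4.54, 14.5, 7.79 and 10.8 TPM in WT replicates 1 to 5 and at 4.39, 5.43, 5.41, 6.53 and 5.44 TPM in RhoB-/- replicates 1 to 5. WT replicates 3 and 5 were high, WT replicate 4 lay between, WT replicate 2 lay within the RhoB-/- range, and WT replicate 1 just under it. Its log2 fold change was -0.42, with a 95% interval of -1.01 to 0.16 (limma adjusted p = 0.27).

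Cxcl1 (ENSMUSG00000029380, chr5:90891241-90893115, plus strand), a neutrophil attractant that binds Cxcr2, stood at 2.64, 4.02, 7.72, 4.96 and 9.04 TPM in WT and at 5.98, 1.66, 2.89, 1.88 and 4.71 TPM in RhoB-/- replicates 1 to 5. WT replicates 3 and 5 were again the highest of all 10 libraries, and RhoB-/- replicate 1 lay above the other 3 WT libraries. Its log2 fold change was -0.60, with a 95% interval of -1.31 to 0.11 (limma adjusted p = 0.20).

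Cxcl10 (ENSMUSG00000034855, chr5:92346638-92348889, minus strand) and its neighbour Cxcl9 (ENSMUSG00000029417, chr5:92321347-92328079, minus strand) are interferon-induced ligands of Cxcr3 on effector T cells and natural killer cells. Cxcl10 stood at 3.56, 3.28, 11.5, 4.65 and 8.72 TPM in WT and at 3.28, 3.95, 4.17, 2.72 and 3.64 TPM in RhoB-/- replicates 1 to 5. As for Ccl20, WT replicates 3 and 5 were high, and here WT replicates 1 and 2 both lay within the RhoB-/- range. The log2 fold change of Cxcl10 was -0.56, with a 95% interval of -1.16 to 0.03 (limma adjusted p = 0.16).

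Cxcl9 was the 1 member below a mean of 1 TPM, at 0.42, 0.16, 0.23, 0.060 and 0.19 TPM in WT and at 0.68, 0.41, 0.91, 0.43 and 0.73 TPM in RhoB-/- replicates 1 to 5. In 4 RhoB-/- libraries it was above all WT libraries, and RhoB-/- replicate 2 lay just under WT replicate 1. The mean difference of log2(TPM + 1) was 0.43 (two-sided exact permutation test over 252 labelings, p = 0.0159, not adjusted for other genes), where the smallest p possible was 0.00794. In the limma fit of 28114 genes without a filter on low TPM, Cxcl9 was called higher, and the members then counted 1 higher. At this level the scale of log2(TPM + 1) understates ratios, and how few reads lie behind each value is unknown. Whether the changes of Cxcl9 and Cxcl10 differ from each other was not tested.

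Promoter sequence was examined because these 4 chemokines are known targets of NF-kB and interferon signalling. RefSeq windows of 250 bases before the start (GRCm38.p6) were found for 8 of the 10 members, 9 windows in all, and were searched on both strands for the NF-kB consensus, the core of the interferon-stimulated response element (GAAANNGAA) and the gamma-activated site (TTCNNNGAA). Over all 32851 windows of that length, 3.90% held the NF-kB consensus, 7.13% the response element core and 7.02% the gamma-activated site. Ccl20 had 1 NF-kB match, which begins at -80. Cxcl1 had 2 NF-kB matches that overlap, at -71 and -70. Cxcl9 had 1 response element core at -175. Cxcl10 had 1 such core at -213 and 2 NF-kB matches at -159 and -103. No window of Ccl25, Ccl28, Cx3cl1 or Il18 held a match, and no member's window held the gamma-activated site, which says only that these letters are not in these windows. The stretches below lie upstream of the start, are printed on the strand of the gene, and show each match in capitals; those of Ccl20 (chr1:83116676-83116705, plus strand), Cxcl1 (chr5:90891164-90891194, plus strand), Cxcl9 (chr5:92328236-92328264, minus strand) and Cxcl10 (chr5:92348973-92349112, minus strand) read
Ccl20: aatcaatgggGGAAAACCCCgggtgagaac
Cxcl1: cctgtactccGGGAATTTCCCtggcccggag
Cxcl9: ccgtttatgtGAAATGGAAgtagaacatg
Cxcl10: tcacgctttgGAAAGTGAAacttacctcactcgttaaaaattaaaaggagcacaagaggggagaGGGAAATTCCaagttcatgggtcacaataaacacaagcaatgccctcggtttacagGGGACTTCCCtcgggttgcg
A match is a description of the sequence, and binding was not measured.

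The membrane-bound chemokines lay on different sides of 0. Cxcl16 (ENSMUSG00000018920, chr11:70453983-70459984, minus strand), the ligand of Cxcr6 on T cells and innate lymphocytes, stood at 9.29, 6.11, 20.9, 9.76 and 17.9 TPM in WT and at 5.94, 3.29, 4.80, 7.54 and 8.43 TPM in RhoB-/- replicates 1 to 5. WT replicates 3 and 5 were the highest libraries for it too, 4 WT libraries lay above all RhoB-/- libraries, and WT replicate 2 lay within their range. Its log2 fold change was -0.91 (SE 0.31), with a 95% interval of -1.58 to -0.24, and it missed the call by limma (adjusted p = 0.0531). The call was met without WT replicate 2 (limma adjusted p = 0.0264), with a pseudocount of 0.1 (0.0459), with mitochondrially encoded genes left out (0.0287) and with the replicate block (0.0230), and the adjusted p reached 0.131 with no filter on low TPM. Cx3cl1 (ENSMUSG00000031778, chr8:94772009-94782427, plus strand), the ligand of Cx3cr1 on macrophages, ranged from 23.0 to 33.5 TPM in WT and from 27.9 to 38.7 TPM in RhoB-/- libraries. Its log2 fold change was 0.22, with a 95% interval of -0.05 to 0.49 (limma adjusted p = 0.23). Among the enzymes that act on these ligands, named here after their values were seen, Adam10, a protease that sheds both, had a log2 fold change of 0.29 (limma adjusted p = 0.12), and Dpp4, which trims Cxcl9 and Cxcl10, one of -0.45 (limma adjusted p = 0.085).

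Of the 2 cytokines, Il15 was not called and Il18 was. Il15 (ENSMUSG00000031712, chr8:82331632-82403222, minus strand) stood at 12.1, 19.1, 24.6, 17.8 and 17.9 TPM in WT and at 17.6, 14.9, 17.4, 17.1 and 28.4 TPM in RhoB-/- replicates 1 to 5. The library labelled RhoB-/- replicate 5 was the highest of all 10, and the other 4 RhoB-/- libraries lay within the WT range. The log2 fold change of Il15 was 0.05, with a 95% interval of -0.37 to 0.47 (limma adjusted p = 0.87), and -0.095 without the library labelled RhoB-/- replicate 5 or -0.080 without WT replicate 1.

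Il18 (ENSMUSG00000039217, chr9:50554827-50581840, plus strand) fell in RhoB-/- libraries, to a mean TPM 0.51 times that of WT libraries. It stood at 51.7, 114, 100.3, 89.3 and 91.0 TPM in WT and at 46.6, 52.9, 38.2, 38.1 and 53.6 TPM in RhoB-/- replicates 1 to 5. WT replicate 1 was low and lay within the RhoB-/- range, while the other 4 WT libraries were above all RhoB-/- libraries, so the groups overlap through WT replicate 1. That library also had the highest mitochondrially encoded share, as given above, whose part in its Il18 level was not tested. The log2 fold change was -0.91 (SE 0.20), with a 95% interval of -1.34 to -0.49 (limma adjusted p = 0.00784), and -0.79 relative to the median of all genes. It was -0.97 without the library labelled RhoB-/- replicate 5 (limma adjusted p = 0.0132), and Il18 was called in each of the 10 fits that left out 1 library. With mitochondrially encoded genes left out it was -0.99 (limma adjusted p = 0.00287). The fall stood beside the colonic epithelial markers given above, of which 4 of 11 rose and 0 fell; their part in it was not tested.

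The tested genes whose deviations from their group means were most like those of Il18 over the 10 libraries were Slc20a1, a phosphate transporter (r = 0.94), Fam3a (r = 0.93) and Afmid (r = 0.93). Part of this likeness came with WT replicate 1, without which r was 0.80, 0.77 and 0.85 over 9 libraries. None of the 3 was called, with log2 fold changes of -0.64 (limma adjusted p = 0.11), 0.01 (0.95) and -0.31 (0.17). Without WT replicate 1, Slc20a1 (-0.91, limma adjusted p = 0.00306) and Afmid (-0.43, limma adjusted p = 0.0430) were called.

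Genes that process, release or bind the members were examined next. Of 14 such genes, 9 were above the filter on low TPM. Of these, 4 were called higher and 0 lower, beside 7.73% and 13.5% of all tested genes. At unadjusted p under 0.05, for which no such share is given, 6 of the 9 were higher and 1 lower. Their median log2 fold change was 0.29. All 9 are named here: Casp1, Pycard, Nlrp6, Nlrc4, Gsdmd and Il18bp act on Il18, and Adam10, Adam17 and Dpp4 on other proteins that include members. The 4 called were among the former, which make up most of the 9. Il18bp, a soluble decoy that binds Il18 and keeps it from its receptor, stood at 1.82, 1.92, 1.78, 1.47 and 1.46 TPM in WT and at 14.4, 10.7, 19.3, 14.9 and 16.4 TPM in RhoB-/- replicates 1 to 5. The groups were far apart, and the library labelled RhoB-/- replicate 5 lay among its group. The log2 fold change was 2.56 (SE 0.14, limma adjusted p = 3.87e-07). The TPM of Il18 over that of Il18bp, a ratio chosen after both values were seen, was 28.4, 59.3, 56.4, 60.7 and 62.3 in WT and 3.25, 4.96, 1.98, 2.56 and 3.26 in RhoB-/- replicates 1 to 5. Decoy transcripts were thus fewer than Il18 transcripts in all 10 libraries, by a smaller ratio in each RhoB-/- library than in any WT library.

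Gsdmd, which forms the membrane pore through which mature Il18 leaves the cell, stood at 63.1, 96.6, 83.0, 68.8 and 73.4 TPM in WT and at 134, 125, 137, 133 and 163 TPM in RhoB-/- replicates 1 to 5. These groups too did not overlap (log2 fold change 0.85, SE 0.13, limma adjusted p = 0.000965). The inflammasome sensors Nlrp6 (0.34, limma adjusted p = 0.0452) and Nlrc4 (0.47, limma adjusted p = 0.0323) were called higher by a small margin. Nlrp6 lost the call without WT replicates 1, 3, 4 or 5 or RhoB-/- replicates 3, 4 or 5 (limma adjusted p from 0.0575 to 0.1003), and Nlrc4 without WT replicates 1, 3, 4 or 5 or RhoB-/- replicates 1, 4 or 5 (from 0.0532 to 0.0800). The list then counted 2 higher without each of WT replicates 1, 3, 4 and 5 and RhoB-/- replicates 4 and 5. The most abundant gene of the list, the adaptor Pycard, averaged 150 ± 8.26 TPM in WT and 151 ± 58.2 TPM in RhoB-/- libraries (SD, n = 5 each), with a log2 fold change of -0.06 (limma adjusted p = 0.86) that is 0.07 relative to the median of all genes. Casp1, the protease that cleaves the precursor, named for that role after its values were seen, averaged 108 ± 12.8 TPM and 132 ± 16.9 TPM (SD, n = 5 each; log2 fold change 0.27, limma adjusted p = 0.12).

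**Figure D3:**
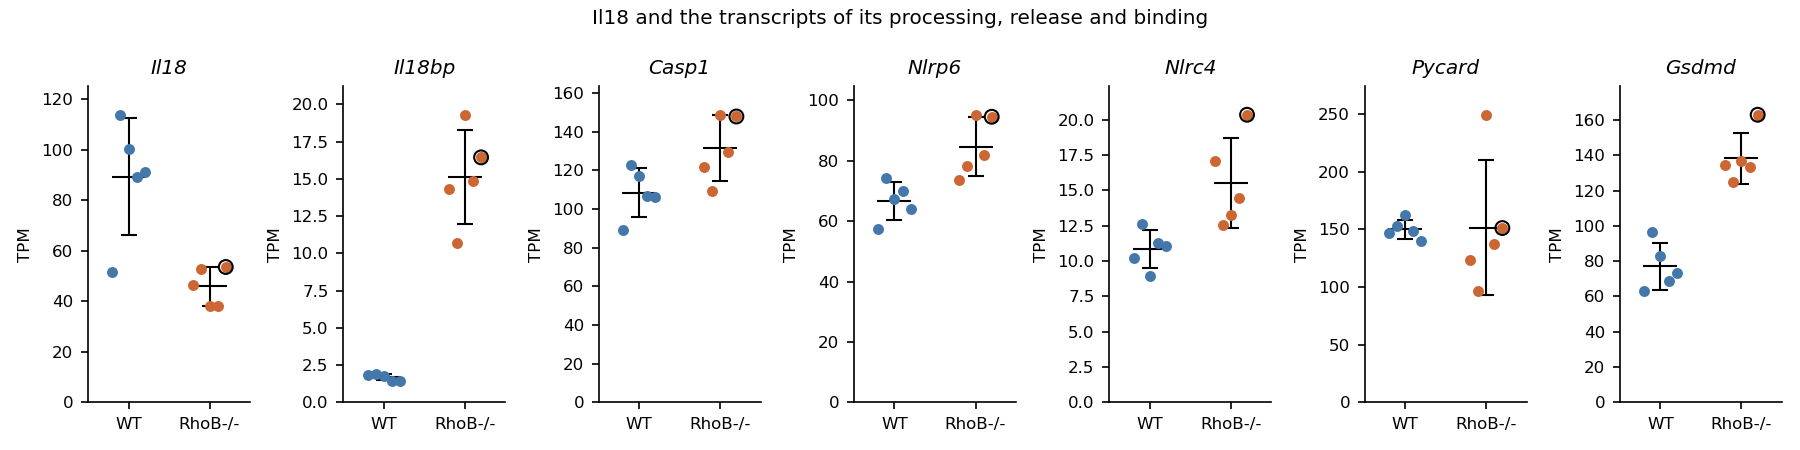
TPM (vertical axes, each from 0) of Il18, its decoy Il18bp, the protease Casp1, the sensors Nlrp6 and Nlrc4, the adaptor Pycard and the pore protein Gsdmd in 5 WT and 5 RhoB-/- libraries, with mean and SD; the ringed point is the library labelled RhoB-/- replicate 5. Il18 is lower while Il18bp, at 1.69 TPM on average in WT and 15.1 TPM in RhoB-/- libraries, and Gsdmd are higher with no overlap.

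Receptors of the members are carried mostly by leukocytes, and most were near 0 in these epithelial libraries. Of 13 receptor genes, 3 were above the filter on low TPM, 2 of them were called higher and 0 lower, beside 7.73% and 13.5% of all tested genes, with the same counts at unadjusted p under 0.05. Il2rb, the chain that Il15 shares with interleukin 2, stood at 0.79, 0.39, 0.54, 0.47 and 1.07 TPM in WT and at 1.5, 1.6, 1.4, 1.67 and 1.54 TPM in RhoB-/- replicates 1 to 5 (log2 fold change 0.64, limma adjusted p = 0.0221). It passed the filter only through the RhoB-/- group, since its WT mean was 0.65 TPM, so the filter fixed its direction, which leaves 1 call among 2 genes. The other receptor called, the common gamma chain Il2rg, averaged 1.14 ± 0.42 TPM in WT and 3.07 ± 0.996 TPM in RhoB-/- libraries (SD, n = 5 each; log2 fold change 0.92, limma adjusted p = 0.0100). For both chains each RhoB-/- library lay above each WT library, beside 14.5% of all tested genes with groups that did not overlap. The call of Il2rb was lost without WT replicate 4 (limma adjusted p = 0.0544) or RhoB-/- replicate 4 (0.0516), which left 1 receptor called. Il15ra, the most abundant receptor gene and the chain that presents Il15, averaged 7.81 ± 2.63 TPM and 8.61 ± 1.32 TPM (SD, n = 5 each; log2 fold change 0.16, limma adjusted p = 0.54).

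The other 10 receptor genes averaged under 1 TPM over the libraries and were not in that fit. In the limma fit without a filter on low TPM, 5 of the 13 receptors were called higher and 0 lower, beside 918 and 1197 of the 28114 genes. Among them, named after their values were seen, Cxcr3, the receptor of Cxcl9 and Cxcl10, ranged from 0 to 0.22 TPM in WT and from 0.36 to 0.79 TPM in RhoB-/- libraries. Cxcr6, the receptor of Cxcl16, ranged from 0.070 to 0.32 TPM in WT and from 0.55 to 1.39 TPM in RhoB-/- libraries. Neither range overlapped between the groups, for which no share among genes below the filter is given. Ccr9, the receptor of Ccl25, ranged from 0.070 to 0.29 TPM in WT and from 0.27 to 0.47 TPM in RhoB-/- libraries. Ccr10, the receptor of Ccl28, ranged from 0.28 to 1.78 TPM and from 0.38 to 0.84 TPM. Both overlapped between the groups, and both were likewise named after their values were seen.

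Markers of T cells and IELs were higher in RhoB-/- libraries as well. Of 11 T cell and IEL markers, 9 were above the filter. Of these, 8 were called higher and 0 lower, beside 7.73% and 13.5% of all tested genes. At unadjusted p under 0.05, for which no such share is given, 9 were higher and 0 lower. Among the 9, Cd8a and Itgae, both called, passed the filter only through the RhoB-/- group, which leaves 6 calls among the other 7. The summed TPM of the list was 28.1, 16.04, 14.97, 17.05 and 32.1 in WT and 74.9, 76.6, 72.9, 70.2 and 69.1 in RhoB-/- replicates 1 to 5. The most abundant, the granule protease Gzma, averaged 4.23 ± 1.87 TPM in WT and 24.0 ± 2.25 TPM in RhoB-/- libraries (SD, n = 5 each), and the others called were Gzmb, Nkg7, Cd7, Cd8a, Cd3g, Cd3e and the IEL integrin Itgae. None of the markers of this list was at 0 in any library. WT replicates 1 and 5 had the highest sums among WT libraries. Of the 3 receptor genes above the filter, Il2rb was highest among WT libraries in these, Il2rg was highest in WT replicate 4 (1.68 TPM), and Il15ra was lowest in WT replicates 1 and 5 (5.23 and 6.01 TPM). The part of these cells in the receptor values was not tested.

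**Figure D4:**
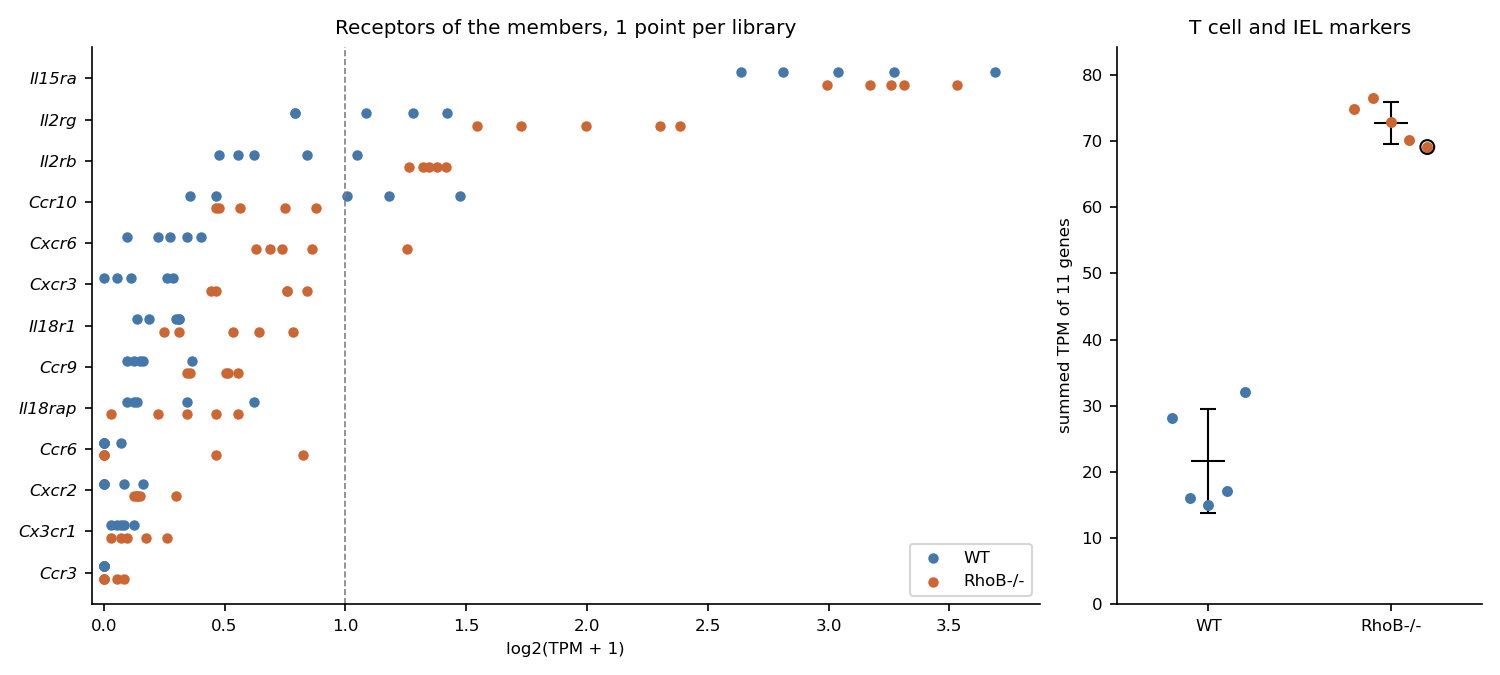
Left, log2(TPM + 1) (horizontal axis) of the 13 receptor genes of the members, 1 point per library, WT in blue and RhoB-/- in orange; the dashed line is at 1 TPM. Right, the summed TPM of 11 T cell and IEL markers per library with mean and SD, 14.97 to 32.1 in WT and 69.1 to 76.6 in RhoB-/- libraries, the library labelled RhoB-/- replicate 5 ringed.

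Markers of other cells were counted in the same way, beside 7.73% of all tested genes called higher and 13.5% called lower. With so few genes above the filter, the counts below do not set a list apart. The 6 B and plasma cell markers all averaged under 1 TPM over the 10 libraries, with sums of 0.31, 0.18, 0.67, 0.36 and 1.01 TPM in WT and 3.46, 0.99, 6.04, 2.54 and 14.1 TPM in RhoB-/- replicates 1 to 5. In the RhoB-/- group alone Cd79a averaged 1.85 TPM and Jchain, named after its values were seen, 1.44 TPM. Their most abundant gene, Cd79a, was listed at 0 in WT replicates 1 to 4. Of 9 macrophage and dendritic cell markers 4 were above the filter and 1 was called higher, Cd68 (log2 fold change 1.19). Cd68 averaged 0.99 TPM in WT and 3.74 TPM in RhoB-/- libraries and was 1 of 2 genes of the list that passed the filter only through the RhoB-/- group. The filter thus fixed the direction of Cd68, which leaves no call among the list's other genes above the filter. The most abundant, Cd14, was not called (0.23, limma adjusted p = 0.44). That list's sums were 17.5, 30.6, 24.8, 28.6 and 26.0 TPM in WT and 41.4, 22.8, 47.3, 27.0 and 40.0 TPM in RhoB-/- replicates 1 to 5. Of 5 neutrophil markers only Ly6g was above the filter and was called higher (1.74), while S100a8 and S100a9, which neutrophils hold in great amounts and which are named after their values were seen, were listed at 0 in all WT libraries and reached at most 4.99 and 4.23 TPM in RhoB-/- libraries. The neutrophil sums, nearly all Ly6g, were 11.8, 33.7, 19.1, 20.9 and 20.6 TPM in WT and 108, 54.3, 56.0, 79.7 and 77.5 TPM in RhoB-/- replicates 1 to 5. Of 8 stromal and endothelial markers 2 were above the filter and Dcn was called higher (1.505), with list sums of 5.48, 5.74, 4.34, 5.92 and 5.49 TPM in WT and 6.93, 8.94, 8.70, 17.1 and 36.9 TPM in RhoB-/- replicates 1 to 5. Of 8 small intestinal markers 3 were above the filter and Rbp2 was called higher (0.86, limma adjusted p = 0.0440), a call lost without WT replicates 1, 2, 4 or 5 or RhoB-/- replicates 2, 4 or 5 (limma adjusted p up to 0.105). The sums of that list were 28.0, 62.4, 83.7, 45.1 and 56.4 TPM in WT and 77.7, 87.6, 85.1, 102 and 134 TPM in RhoB-/- replicates 1 to 5.

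Of 28 chemokines outside the 10 members, 9 were above the filter on low TPM, 3 of them only through the RhoB-/- group. By limma 3 were called higher and 0 lower, beside 7.73% and 13.5% of all tested genes, with the same counts at unadjusted p under 0.05. For 2 of the 3, Ccl7 and Ccl4, the filter fixed the direction, which leaves 1 call among 6 genes, too few to set the list apart. Ccl5, a product of T cells and of stimulated epithelium that attracts T cells, stood at 22.1, 9.35, 11.5, 12.3 and 22.6 TPM in WT and at 66.6, 74.6, 49.3, 57.7 and 49.1 TPM in RhoB-/- replicates 1 to 5, with no overlap (log2 fold change 1.93, SE 0.23, limma adjusted p = 0.000213). As for the T cell markers given above, WT replicates 1 and 5 were the highest WT libraries, and the part of those cells was not tested. The monocyte attractant Ccl7 (2.64, limma adjusted p = 0.000107) and Ccl4 (1.25, limma adjusted p = 0.0276) passed the filter only through the RhoB-/- group, where they averaged 6.58 ± 3.22 TPM and 2.38 ± 1.95 TPM (SD, n = 5 each). Without RhoB-/- replicate 1 Ccl4 fell below the filter, and its call was lost without WT replicates 2, 4 or 5 or RhoB-/- replicate 2 (limma adjusted p from 0.0506 to 0.0637), and the list counted 2 higher without RhoB-/- replicates 1 or 2. The most abundant, Ccl6, averaged 154 ± 26.2 TPM in WT and 126 ± 35.6 TPM in RhoB-/- libraries (SD, n = 5 each; log2 fold change -0.32, limma adjusted p = 0.24).

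Among 25 other cytokines of the epithelium, 13 were above the filter, 2 were called higher and 2 lower, with 3 and 4 at unadjusted p under 0.05. Over all genes tested 7.73% were called higher and 13.5% lower, so the counts of called genes are near those of the genes at large. They are no result about the list. The filter was passed by 2 of the 13 only through the RhoB-/- group, neither of them called, and 1 of these, Il1b, named after its values were seen, is among the 3 higher at unadjusted p. The death ligand Tnfsf10 averaged 1.996 ± 0.60 TPM in WT and 6.35 ± 1.60 TPM in RhoB-/- libraries (SD, n = 5 each; log2 fold change 1.29, limma adjusted p = 0.000608). Tnfsf13b, the B cell survival factor BAFF, averaged 1.87 ± 0.14 TPM and 5.50 ± 1.26 TPM (SD, n = 5 each; 1.15, limma adjusted p = 0.000478). Lif fell from 3.04 ± 0.91 TPM to 1.25 ± 0.27 TPM (SD, n = 5 each; -0.83, limma adjusted p = 0.00814), and Kitl, the ligand of the receptor Kit, from 21.1 ± 2.78 TPM to 15.8 ± 1.19 TPM (-0.39, limma adjusted p = 0.0258). For each of these 4 genes, named because they were called, the groups did not overlap, beside 14.5% of all tested genes. The call of Kitl was lost after recentring on the median (limma adjusted p = 0.119) and without WT replicates 2, 4 or 5 or RhoB-/- replicate 2 (up to 0.0706). Lower calls in the list numbered 1 without each of these 4 libraries and 4 without RhoB-/- replicate 3. The most abundant gene, Mif, averaged 144 ± 19.6 TPM in WT and 126 ± 49.0 TPM in RhoB-/- libraries (SD, n = 5 each; -0.25, limma adjusted p = 0.40), and was called lower without RhoB-/- replicate 3 (-0.45, limma adjusted p = 0.0194).

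Interferons induce Cxcl9, Cxcl10, Il18bp and Il15 in many cells, so the regulators of that axis were set beside them. Of 22 genes, 18 were above the filter on low TPM, and their median log2 fold change was 0.52. Of these, 10 were called higher and 0 lower, beside 7.73% and 13.5% of all tested genes. At unadjusted p under 0.05, for which no such share is given, 11 were higher and 0 lower. The transcription factor Irf7 stood at 37.0, 47.4, 84.0, 40.0 and 63.1 TPM in WT and at 307, 430, 393, 564 and 530 TPM in RhoB-/- replicates 1 to 5. The groups lay far apart, and WT replicates 3 and 5 were the highest WT libraries. The log2 fold change of Irf7 was 3.05 (SE 0.23, limma adjusted p = 3.89e-06). Stat2 (2.03, limma adjusted p = 6.53e-06), which acts in the response to type I interferon, Usp18, a feedback inhibitor of its receptor (4.25, limma adjusted p = 1.14e-07), and the factor Irf1 (0.66, limma adjusted p = 0.0221) rose as well, as did the interferon gamma receptor chains Ifngr1 (0.48, limma adjusted p = 0.0403) and Ifngr2 (0.52, limma adjusted p = 0.0123). Irf1 lost the call without WT replicates 2 or 4 or RhoB-/- replicates 1 or 5 (limma adjusted p from 0.0501 to 0.0616), and Ifngr1 without WT replicates 1, 2 or 4 or RhoB-/- replicates 1, 4 or 5 (from 0.0632 to 0.1003). Without the library labelled RhoB-/- replicate 5 the list counted 8 higher. The order of WT libraries differed among these genes, as Stat2 and Usp18 were lowest in WT replicate 5 (9.15 and 0.91 TPM). In 7 of the 18 genes WT replicates 3 and 5 were the highest WT libraries, beside 8.24% of all tested genes, and in 8 (44.4%) WT replicates 2 and 4, beside 43.3% of all tested genes. The interferon transcripts Ifnb1, Ifnl2, Ifnl3 and Ifng, named after their values were seen, each averaged under 1 TPM. Ifnb1 and Ifnl3 were listed at 0 in all 10 libraries, and Ifnl2 reached at most 0.25 TPM in WT and 0.14 TPM in RhoB-/- libraries. Ifng lay between 0.17 and 1.17 TPM in WT and between 0.19 and 1.13 TPM in RhoB-/- libraries. These values say nothing of other interferon genes. Against these regulators, Cxcl10 had a negative log2 fold change that missed the call, Il15 one near 0, Il18bp a rise, and Cxcl9 a higher level below 1 TPM.

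The regulators and feedback genes of NF-kB were examined last. Of 19 genes, all above the filter, 1 was called higher and 0 lower, with 3 and 0 at unadjusted p under 0.05, and the median log2 fold change was 0.06. The share called higher is near the 7.73% of all tested genes, of which 13.5% were lower, so the higher count is no result about the list. With recentring on the median or quantile normalization 2 were called higher. The gene called was Zc3h12a, an RNase that degrades cytokine transcripts, at 13.1, 12.3, 25.2, 15.5 and 25.6 TPM in WT and at 54.6, 38.8, 43.1, 31.2 and 56.6 TPM in RhoB-/- replicates 1 to 5 (log2 fold change 1.28, SE 0.23, limma adjusted p = 0.00308). The most abundant was Zfp36, which also destabilises cytokine transcripts, at 93.9, 181, 364, 212 and 381 TPM in WT and at 264, 194, 312, 213 and 330 TPM in RhoB-/- replicates 1 to 5 (0.23, limma adjusted p = 0.64, and -0.072 without WT replicate 1). Nfkbia, the NF-kB inhibitor that NF-kB itself induces, named after its values were seen, stood at 79.6, 117, 313, 137 and 337 TPM in WT and at 160, 85.1, 166, 94.1 and 172 TPM in RhoB-/- replicates 1 to 5 (-0.37, limma adjusted p = 0.51). WT replicates 3 and 5 were the highest WT libraries for these 3 genes and for 11 of the 19 in all, beside 4 of the 9 members above the filter (Ccl20, Cxcl1, Cxcl10 and Cxcl16) and 8.24% of all tested genes, a pair of libraries singled out after the values were seen. In the other 8 NF-kB genes another pair of WT libraries was highest. WT replicate 2 was the highest WT library in 7 of the 19, for which no share of all tested genes is given. It was often high, as WT replicates 2 and 4 were the highest pair in 43.3% of all tested genes. Ikbke, named after its values were seen, stood at 28.88 TPM in WT replicate 2 and was lowest in WT replicates 3 and 5, at 18.03 and 17.52 TPM. The part of these regulators in the chemokine values was not tested.

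**Figure D5:**
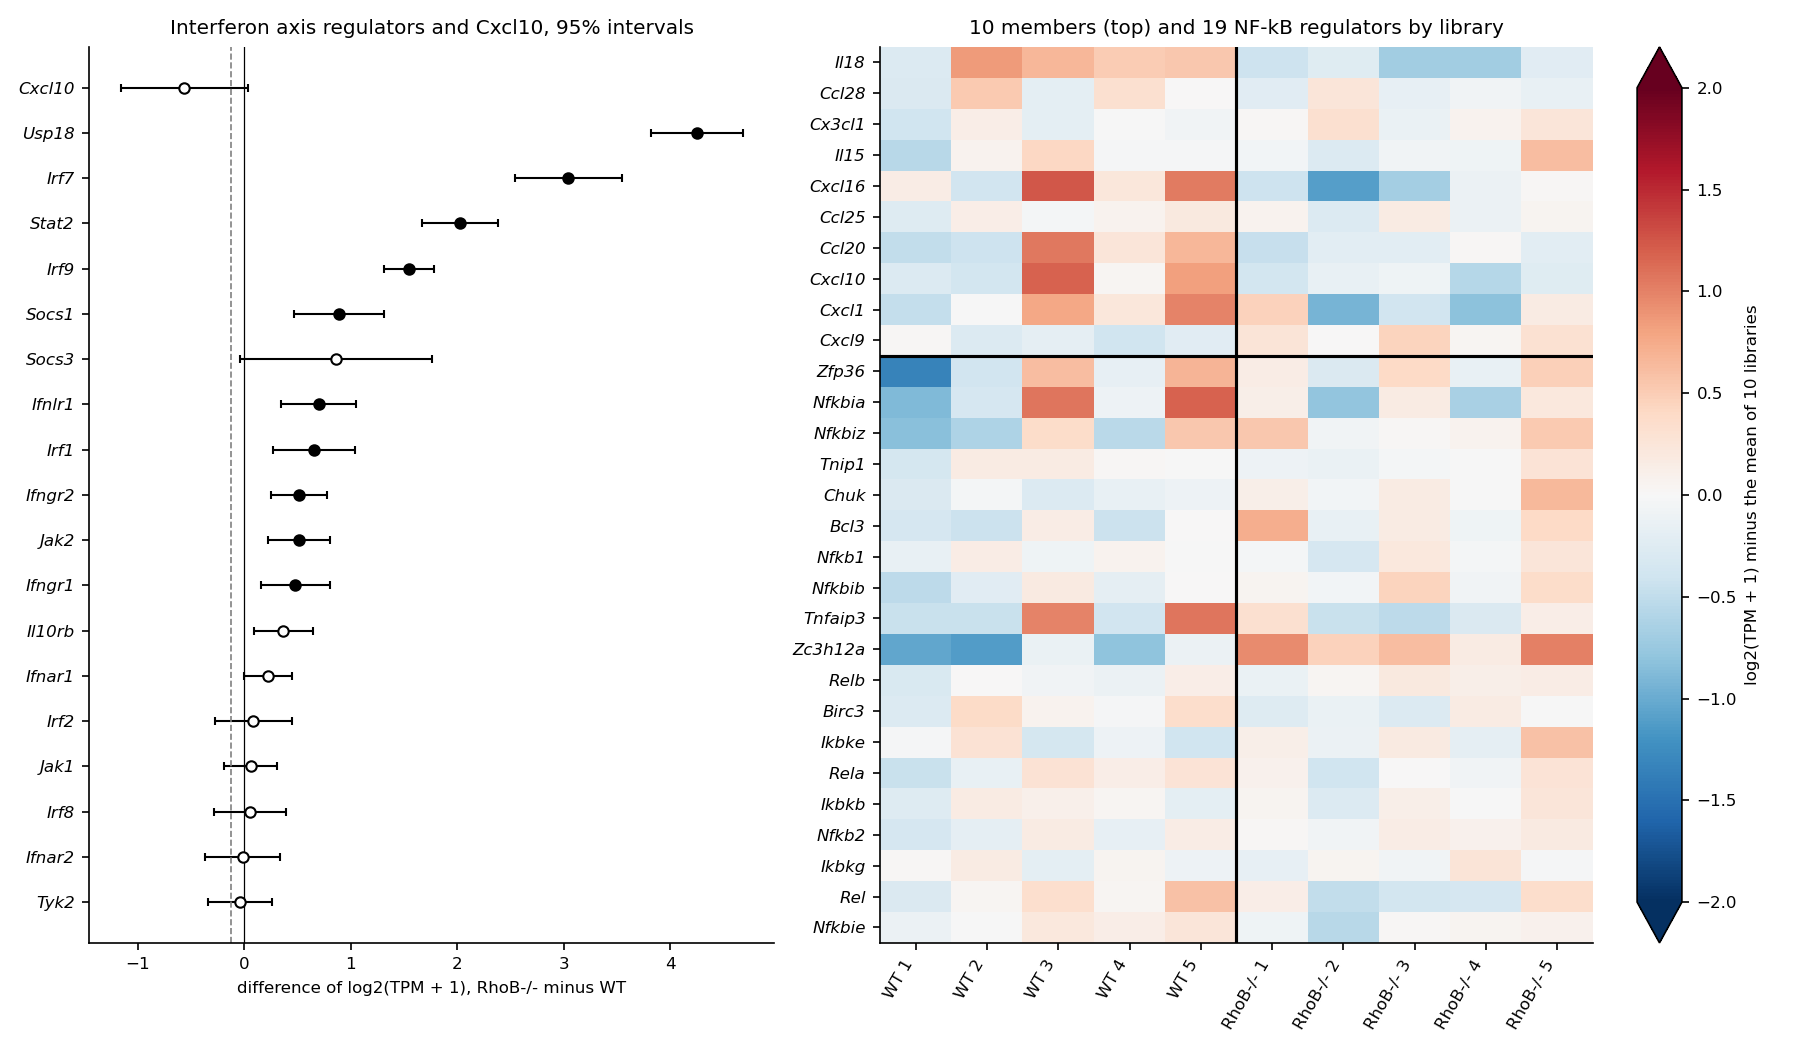
Left, difference of log2(TPM + 1), RhoB-/- minus WT, with 95% intervals from limma, of Cxcl10 and 18 interferon axis regulators; filled points were called, and the dashed line is the median of all tested genes at -0.13. Right, log2(TPM + 1) minus the mean of the 10 libraries for the 10 members above the line and 19 NF-kB regulators below it, with 1 column per library. Cxcl10 lies at -0.56 while Irf7 lies at 3.05, and Ccl20, Cxcl1, Cxcl10 and Cxcl16 are highest in WT replicates 3 and 5, which are the highest WT libraries for 11 of the 19 NF-kB genes and not for the other 8.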

How the data were processed

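The authors sequenced total RNA of colonic IECs, 1 library for each of 5 WT and 5 RhoB-/- mice, and genotype and replicate number were read from the labels. The submitters' processing notes name HISAT2, StringTie, RSEM, edgeR and the build GRCm38.p6. The deposited TPM values, rounded by the authors to 2 decimals, were used as given. TPM is relative to each library and keeps no depth. The design assumed that the table might hold counts and named the test used here for the case of TPM.

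limma 3.58.1 in R 4.3.3 (lmFit, eBayes with trend) was fitted to log2(TPM + 1) of the 12870 genes that averaged 1 TPM or more, with Benjamini-Hochberg adjustment over all of them and calls at adjusted p below 0.05. The fit was also run on simulated data, and the outcome of that run is not given here. The member below that level had a two-sided exact permutation test. Fold changes on this scale understate those of low genes. Positions are from GENCODE, which held 55227 of the 55487 gene identifiers, and promoters from RefSeq (GRCm38.p6).

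The members, 6 companion lists and 7 marker lists were chosen with earlier results of these data known. A single gene of the interferon list is not reported here, and the counts of that list are without it. Named genes were the members, Rhob, from each companion list its most abundant gene and up to 6 called genes by mean TPM, from each marker list its most abundant gene and all called genes, and the 3 genes most like Il18; others are marked as named after their values were seen. Alternatives were another pseudocount, no filter, a replicate block, 3 other scalings, no trend, the study's thresholds and each library left out.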

Additional observations from a re-analysis of the deposited data

Results flagged for a closer look

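In 116 groups of 5 libraries, 2 for each named gene, 7 held a library far from the other 4, beside about 5.8 by chance. In the library labelled RhoB-/- replicate 5, Rhob reached 111 TPM, against at most 0.57 TPM in the other RhoB-/- libraries. Il15 stood highest in that library too, at 28.4 TPM. Ccl28 was far above the rest of its group in RhoB-/- replicate 2, at 36.2 TPM, and Tnfsf13b far below it in the same library, at 3.29 TPM. Mif stood at 212 TPM in RhoB-/- replicate 3. Cd79a was listed at 0.12 TPM in WT replicate 5 and at 0 in the other WT libraries. Slc20a1, picked as the gene most like Il18 across libraries, stood at 87.6 TPM in WT replicate 1, the lowest of its group, as Il18 did. That choice favours such a value, so it is no separate observation.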

How the results depend on the processing

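Il18 kept its direction and its call in all fits run, with log2 fold changes from -0.99 to -0.79 over 7 other settings (limma adjusted p up to 0.0252) and from -1.10 to -0.81 with 1 library left out (limma adjusted p up to 0.0222). Cxcl9 kept its direction with exact permutation p from 0.00794 to 0.0397. Depth is unknown, so how far counting error limits the low genes, Cxcl9 and the receptors above all, cannot be given. Genotype cannot be told apart from mouse source. Same-numbered libraries are different animals, and deviations of same-numbered pairs correlated at 0.024, 0.016, 0.072, -0.087 and -0.002, so the numbers do not pair them.

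The members counted 1 lower in the fit as reported and 2 lower with a pseudocount of 0.1, with mitochondrially encoded genes left out, with the replicate block and at the study's thresholds, each time by adding Cxcl16, and 1 to 2 with 1 library left out. The member counted as higher with no filter on low TPM was Cxcl9 (1 against 0), since only that fit tests it. For Cxcl16 and the replicate block the cause was not tested.

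The alternatives for the companion lists, other than leaving out libraries, were added after seeing the data. The replicate block left 1 receptor higher, 2 processing genes higher and 1 lower, 1 other cytokine lower, and 1059 of all genes lower against 1734. With no filter, 5 receptors and 2 processing genes were higher. The study's thresholds gave 2 processing genes higher and 1072 genes lower. With mitochondrially encoded genes left out, 1 processing gene, 4 other cytokines and 3729 genes were lower. Recentring left 771 genes and 1 other cytokine lower and put 2 NF-kB regulators higher, as did quantile normalization, with 1587 genes higher against 995. With 1 library left out the ranges were 853 to 2868 genes lower, 719 to 1154 higher, 1 to 2 receptors higher, 2 to 4 processing genes higher and 0 to 1 lower, and 1 to 4 other cytokines lower. The causes were not tested.

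Among the named genes, signs turned for 5, none of them called in any fit run. Ccl25 was 0.088 after recentring, 0.11 with quantile normalization and from -0.11 to 0.024 with 1 library left out (0.0049 without WT replicate 5). Il15 was -0.021 with mitochondrially encoded genes left out and from -0.095 to 0.16 with 1 library left out. Pycard was 0.068 after recentring and from -0.26 to 0.083 with 1 library left out, Zfp36, at 0.23 as reported, from -0.072 to 0.43, and Fam3a from -0.11 to 0.093, with -0.058 where mitochondrially encoded genes were left out.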
